A study of Mus musculus with 72 samples.

Results

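The NMDA receptor subunit genes described here are Grin1, Grin2a, Grin2b, Grin2c, Grin2d and Grin3a, chosen by name as 6 of the 53715 genes counted. They were followed through 36 brain libraries out of the 72 of the series. Bulk RNA was taken from cerebellum (Cb), hippocampus (Hc) and cerebral cortex (Co) of 6 wild-type (WT, Gnb5+/+) and 6 knockout (KO, Gnb5-/-) mice, male and 18 weeks old, and every mouse gave all 3 regions. The knockout allele lacks exon 3 of Gnb5 in the germline on a C57BL/6J background, so every cell of these mice carries the deletion, and heterozygous animals were sampled in heart tissue but not in brain. Gnb5 encodes the G-protein beta subunit that partners the R7 regulators of G-protein signalling. Its counts ran from 3325 to 6456 in the 18 WT brain libraries and from 425 to 1007 in the 18 KO libraries, with no overlap.

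NMDA receptors are glutamate-gated cation channels that admit calcium and open only when the cell is depolarised and a co-agonist, glycine or D-serine, is bound. Every receptor holds the obligatory GluN1 subunit, from Grin1, together with GluN2 subunits, from Grin2a to Grin2d, or GluN3 subunits such as that from Grin3a. The GluN2 subunits bind glutamate and set how long the channel stays open and how strongly magnesium blocks it. In rodents Grin2b and Grin2d are prominent early in life, Grin2a and Grin2c rise after birth, and Grin2c is best known from cerebellar granule cells. GluN3A binds glycine and lowers the calcium flow of receptors that contain it.

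The members differ in sequence although they code for the same fold. The longest run of identical residues in all 6 predicted proteins was 7 residues, in the third membrane segment that lines and gates the channel. The coding bases for that run with 6 codons on each side (57 bases, GRCm38 transcripts of the GENCODE M21 annotation, 5′ to 3′) are shown for Grin1, Grin2c and Grin3a, 1 gene of each kind of subunit, because they hold that longest shared run, with bases identical in these 3 genes in capitals:
Grin1: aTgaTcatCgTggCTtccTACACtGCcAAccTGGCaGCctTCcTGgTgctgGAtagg
Grin2c: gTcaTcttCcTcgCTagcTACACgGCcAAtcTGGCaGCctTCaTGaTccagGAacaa
Grin3a: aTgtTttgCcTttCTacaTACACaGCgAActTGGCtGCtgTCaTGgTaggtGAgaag

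In that window 28 of the 57 bases were shared by the 3 genes, and Grin1 had 40 bases identical with Grin2c and 35 with Grin3a. All 6 genes lie on the minus strand of GRCm38: Grin1 (ENSMUSG00000026959) at chr2:25291181-25319187, Grin2a (ENSMUSG00000059003) at chr16:9567898-9995560, Grin2b (ENSMUSG00000030209) at chr6:135713233-136173511, Grin2c (ENSMUSG00000020734) at chr11:115249169-115267243, Grin2d (ENSMUSG00000002771) at chr7:45831883-45878378, Grin3a (ENSMUSG00000039579) at chr4:49661611-49845744. The window falls inside a single exon of each gene shown: Grin1 chr2:25297184-25297240 (exon 15 of 21), Grin2c chr11:115253734-115253790 (exon 9 of 13), Grin3a chr4:49770455-49770511 (exon 3 of 9). Over whole annotated transcripts, the longest exact run shared by any pair of members was 34 bases, between Grin2b and Grin2c, which is shorter than the sequencing reads. Other genes overlap some members on the opposite strand with shared exon sequence: Grin1os for Grin1, Gm26653, Gm14329 and Gm22892 for Grin2b, and Gm45441 for Grin2d. The library kit keeps strand, but whether the counting used it is not given in the sources used here, so values of Grin1, Grin2b and Grin2d, and of Grin2c with the small RNA gene Gm25837, may include reads from the other strand.

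Levels are given as CPM, the share of a library's counted reads scaled to a common depth, after trimmed-mean (TMM) normalisation across the 36 brain libraries, and, where genes are compared with each other, as CPM per kilobase of exon (RPKM). Counted reads ran from 29204390 to 48807435 per brain library. The lowest member count in any of them was 106 reads, for Grin2d in KO cerebral cortex. The marker genes given here matched the tissue labels, apart from Neurod2. In WT mice the summed level of 5 cerebellar granule cell markers was 3602 to 3995 CPM in cerebellum, against 31.2 to 43.3 CPM in the other regions. Gabra6, the granule cell GABA receptor subunit, was 806 to 892 CPM in WT cerebellum and at most 0.587 CPM in WT hippocampus or cortex. Tbr1, a transcription factor of cortical glutamatergic neurons, was 104.1 to 121.2 CPM in WT cortex and at most 0.771 CPM in WT cerebellum. Neurod2, listed with it, went the other way, at 87.8 to 101.7 CPM in WT cerebellum and 46.6 to 51.8 CPM in WT cortex. Of the 5 telencephalic glutamatergic markers in that list, 4 were lower in cerebellum than in cortex and 1 was higher. In bulk tissue, fewer cells of a type and less RNA per cell cannot be told apart.

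The 3 libraries from KO mouse 12 (cerebellum) and KO mice 3 and 14 (cerebral cortex) stood apart from the other 33. The share of their uniquely aligned reads that fell outside genes was 6.86% to 8.32%, against 11.7% to 16.97% elsewhere, and the share assigned to more than a single gene was 1.24% to 1.5%, against 1.06% to 1.15%. All 6 members were lower in each of these libraries than in every KO library of the same region that did not stand apart. Grin2b was at 0.209 of the median of the other KO cerebella in mouse 12, and at 0.136 and 0.368 of the median of the other 4 KO cortices in mice 14 and 3. The value closest to its median was that of Grin2c in mouse 14, at 0.886. Cell type markers moved as well. In the cerebellum of mouse 12 the summed level of 5 GABAergic interneuron markers was 2718 CPM against 1237 to 1348 CPM in the other 5 KO mice. Most of that gap was Pvalb, the calcium-binding protein parvalbumin, which reached 1671 CPM in KO cerebellum and at most 386 CPM in WT, whereas Gad2 of the same list went down to 119 CPM in KO against 160 to 185 CPM in WT. In mouse 12 the sum of 5 oligodendrocyte markers was 5116 against 2445 to 3425 CPM, and that of 5 choroid plexus markers was 873 against 3.57 to 8.79 CPM, mostly from Ttr. Other sums were lower in that library, with 328 against 522 to 603 CPM for telencephalic glutamatergic neurons. That for astrocytes and Bergmann glia was 1665 against 2202 to 2467 CPM, and that for Purkinje cells 6123 against 7260 to 8652 CPM. Purkinje markers did not move together, as Itpr1 went down to 1957 CPM in KO cerebellum against 4738 to 5600 CPM in WT. Pcp2, Calb1, Car8 and Pcp4 reached 315, 2010, 1755 and 166 CPM in KO, against at most 157, 1139, 1646 and 52.2 CPM in WT. These are the extremes over all KO cerebella, and they do not all come from mouse 12. In the cortex of mouse 14 the GABAergic sum was 2090 CPM, and in mouse 3 it was 1095 CPM, against 831 to 894 CPM in the other 4 KO mice. The telencephalic glutamatergic sum was 923.5 and 1088 CPM in these cortices, against 1379 to 1492 CPM in the other 4. The part of tissue composition or RNA quality in the member levels was not tested, so the knockout results below are given with and without these libraries.

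**Figure D1:**
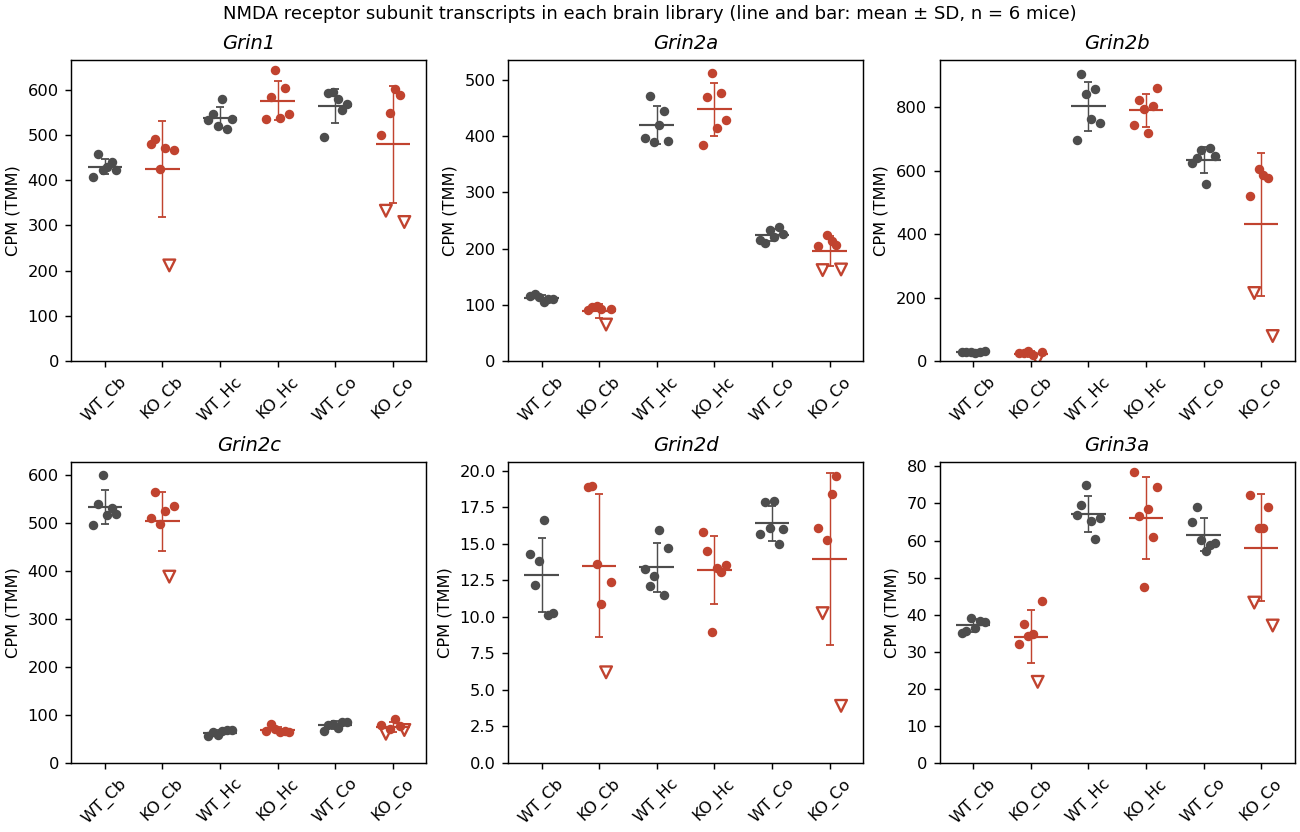
Level (CPM, linear axis from 0) of each NMDA receptor subunit in the 36 brain libraries, 6 mice per group; lines and bars are mean ± SD, and open triangles are KO mouse 12 in cerebellum and KO mice 3 and 14 in cortex. Grin2c is high in cerebellum and Grin2b in hippocampus and cortex, and the triangles are the lowest KO values of every member in their region.

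In WT mice the subunit genes split by region. Grin1 was high everywhere, with 430 ± 17.2 CPM in cerebellum, 538 ± 23.6 CPM in hippocampus and 564 ± 36.8 CPM in cortex (mean ± SD, n = 6). Grin2c was 533 ± 35.7 CPM in cerebellum, against 63.1 ± 5.31 CPM in hippocampus and 78.3 ± 7.76 CPM in cortex. Grin2b had the opposite distribution, with 29.0 ± 1.75 CPM in cerebellum, 802 ± 77.6 CPM in hippocampus and 633 ± 40.7 CPM in cortex.

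Grin2a was most abundant in hippocampus, at 420 ± 33.5 CPM, with 224 ± 10.7 CPM in cortex and 112 ± 4.94 CPM in cerebellum. The 3 regions did not overlap for this gene. Grin3a was 67.2 ± 4.86 CPM in hippocampus, 61.6 ± 4.49 CPM in cortex and 37.1 ± 1.66 CPM in cerebellum, where all values lay below those of the other regions. Grin2d stayed between 10.1 and 17.9 CPM in all 18 WT libraries.

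Cerebellum was compared with cortex in WT mice with edgeR's quasi-likelihood test, with the mouse as a block, and a gene was called at a Benjamini-Hochberg adjusted p under 0.05 over all genes tested. All 6 members were called, where 81.2% of all 18577 genes were called. The log2 difference (cerebellum over cortex) was 2.77 ± 0.053 (SE) for Grin2c and −4.45 ± 0.053 for Grin2b. It was −1.002 ± 0.046 for Grin2a, −0.73 ± 0.049 for Grin3a, −0.39 ± 0.035 for Grin1 and −0.37 ± 0.079 for Grin2d. The largest adjusted p of the 6 was 0.00039, for Grin2d.

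Against hippocampus, 5 of 6 members were called in cerebellum, beside 80.8% of all genes. Grin2c was higher by 3.08 ± 0.054 on the log2 scale, while Grin2b was −4.79 ± 0.054, Grin2a −1.90 ± 0.047, Grin3a −0.86 ± 0.049 and Grin1 −0.32 ± 0.035. The Grin2d difference was −0.066 ± 0.080, with a 95% interval from −0.24 to 0.10 and an adjusted p of 0.454.

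Between hippocampus and cortex the differences were smaller and 55.9% of all genes were called. The log2 difference (hippocampus over cortex) was 0.90 ± 0.046 for Grin2a, 0.34 ± 0.045 for Grin2b and 0.12 ± 0.048 for Grin3a, and −0.31 ± 0.052 for Grin2c and −0.30 ± 0.079 for Grin2d, so 5 of 6 members were called. Grin3a was the least certain, with an adjusted p of 0.0351 that became 0.0537 without the mouse block. Grin1 differed by −0.067 ± 0.035 (adjusted p = 0.115). In KO mice without the 3 libraries that stood apart, the hippocampus over cortex difference was 1.07 ± 0.054 for Grin2a and 0.43 ± 0.065 for Grin2b, and 4 of 6 members were called, beside 45.7% of all genes, Grin3a (−0.096 ± 0.091) no longer among them. With those libraries 1 of 6 was called in KO mice, beside 19.1% of all genes.

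Per kilobase of exon, Grin2c ranked above all other members in WT cerebellum with 106 ± 7.10 RPKM, and Grin1 followed with 44.3 ± 1.78 RPKM. Grin2a (6.26 ± 0.277 RPKM), Grin3a (3.02 ± 0.135 RPKM), Grin2d (1.93 ± 0.381 RPKM) and Grin2b (1.17 ± 0.0707 RPKM) came next, and no neighbours in that order overlapped. In WT hippocampus the order was Grin1 (55.5 ± 2.44 RPKM), Grin2b (32.3 ± 3.12), Grin2a (23.4 ± 1.87), Grin2c (12.5 ± 1.05), Grin3a (5.48 ± 0.396) and Grin2d (2.01 ± 0.249), again without overlap. In WT cortex Grin1 (58.1 ± 3.797 RPKM) and Grin2b (25.5 ± 1.64) were followed by Grin2c (15.6 ± 1.54) and Grin2a (12.5 ± 0.599), whose ranges overlapped. Grin3a (5.02 ± 0.366 RPKM) and Grin2d (2.46 ± 0.179) were last there too. The rank of each member was the same per kilobase of the longest transcript, but Grin1, whose exon union of 9700 bases is far longer than its longest transcript of 4276 bases, then reached 100.5 ± 4.03 RPKM in WT cerebellum and overlapped with Grin2c (109 ± 7.29 RPKM), as Grin2b did with Grin2a in WT hippocampus.

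As a share of the summed RPKM of the 4 Grin2 genes, Grin2c made up 91.9% ± 0.528 (SD, n = 6) in WT cerebellum, 17.9% ± 1.29 in hippocampus and 27.7% ± 1.53 in cortex. Grin2b made up 1.02% ± 0.0835 in cerebellum, 45.9% ± 1.96 in hippocampus and 45.5% ± 1.52 in cortex. The Grin2a share was 5.44% ± 0.358 in cerebellum, 33.3% ± 1.24 in hippocampus and 22.4% ± 0.925 in cortex. The Grin2a to Grin2b ratio was 5.37 ± 0.369 in WT cerebellum, 0.727 ± 0.0501 in hippocampus and 0.492 ± 0.0308 in cortex. The summed Grin2 level was 2.60 ± 0.176 times that of Grin1 in cerebellum, 1.27 ± 0.107 times in hippocampus and 0.967 ± 0.0674 times in cortex. With the longest transcript as the length these last ratios were 1.197 ± 0.0802, 0.616 ± 0.0514 and 0.462 ± 0.0317, in the same order of regions. All are descriptions of transcripts, with no test.

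**Figure D2:**
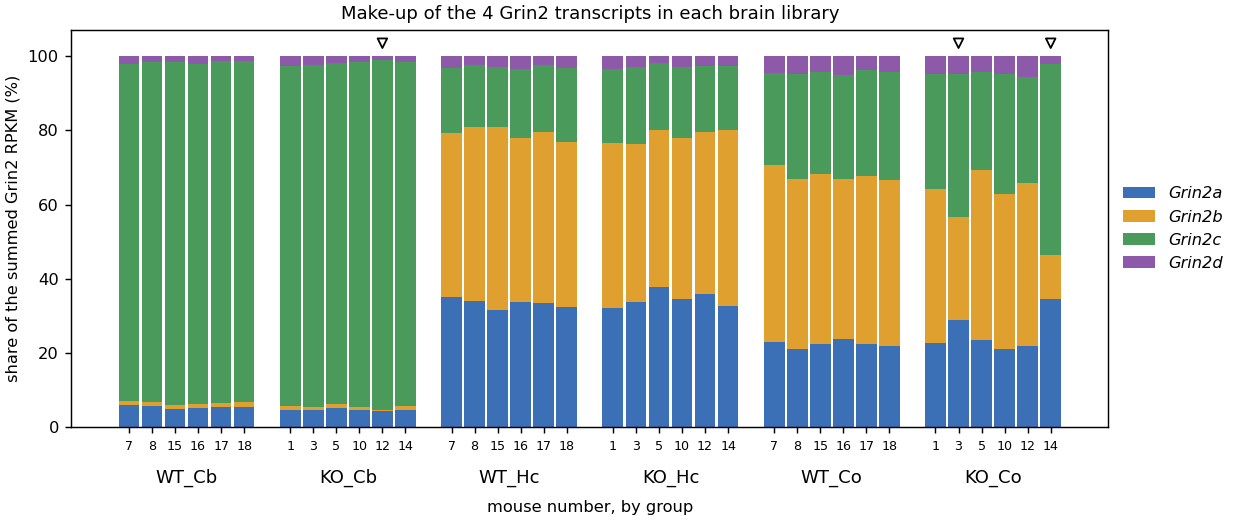
Share of each Grin2 gene in the summed Grin2 RPKM (%, stacked to 100) in each of the 36 brain libraries, by group and mouse number; triangles mark the 3 libraries that stood apart. Grin2c makes up over 90% in every cerebellum, and the cortices of KO mice 3 and 14 hold a smaller Grin2b share than the other 10 cortices.

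Outside those 3 libraries, the make-up in KO mice had means within 3 percentage points of WT for each gene and region. The Grin2c share of KO cerebellum was 92.7% ± 0.890 in all 6 mice and 92.4% ± 0.594 without mouse 12. The summed Grin2 level was 2.58 ± 0.577 times that of Grin1 in all 6 KO cerebella and 2.60 ± 0.176 times in WT. The KO range of 2.23 to 3.75 overlapped the WT range of 2.48 to 2.95. Without mouse 12, which had the value of 3.75, the KO ratio was 2.35 ± 0.0852, with a range from 2.23 to 2.45. How often ratios of other genes separate the groups in this way was not tested. The Grin2b share of KO hippocampus was 44.0% ± 1.85. In KO cortex the Grin2b share was 35.5% ± 13.2 in all 6 mice, and 43.3% ± 2.02 in the 4 mice other than 3 and 14. The Grin2a to Grin2b ratio of KO cortex was 2.85 in mouse 14, the highest of all 12 cortices, and 0.515 ± 0.0219 in the 4 mice other than 3 and 14.

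The knockout was then compared with WT within each region, which is the contrast the study was built on. In cerebellum Grin2a stood apart from the other members. Its lowest, median and highest levels were 104.6, 112 and 119 CPM in WT mice and 65.2, 92.6 and 98.1 CPM in KO mice. Every KO value lay below every WT value, and mouse 12 was the lowest. Groups did not overlap for 1.1% of the genes tested in cerebellum, and for 1.67% without mouse 12.

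The size of the Grin2a difference was −0.33 ± 0.093 (log2, KO over WT) in all 12 libraries, with a 95% interval from −0.53 to −0.12. It did not pass the test over all genes (adjusted p = 0.583 by edgeR). No member was called in cerebellum, where 0.0817% of genes were, and Grin2a was the 1 member with an unadjusted p under 0.05 in edgeR and in DESeq2. Over all genes, 5.85% passed that unadjusted threshold in edgeR, and 1590 of 31208 genes did in DESeq2. The exact two-sided permutation test of log2 CPM gave p = 0.002165, the smallest that 924 divisions allow, unadjusted and 1 of 18 such tests of the members. DESeq2 on the same 12 libraries gave an adjusted p of 0.336.

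Without mouse 12 the levels were 94.5 ± 2.87 CPM in 5 KO mice against 112 ± 4.94 CPM in 6 WT mice. Grin2a then fell by 0.25 on the log2 scale (SE 0.039, adjusted p = 0.0101) and was the only member of 6 called by edgeR, where 0.359% of genes were called. With the same library left out, DESeq2 gave an adjusted p of 2.0e-06 for Grin2a and called 1.03% of the genes it adjusted. Leaving out any other single library gave no call. With that outside-gene share added to the model, all 12 libraries gave −0.19 ± 0.053 for Grin2a (adjusted p = 0.228). Over the 20 alternatives tried, the log2 difference ran from −0.35 to −0.19 and the adjusted p from 2.0e-06 to 0.722. Granule cell markers summed to 3669 to 4007 CPM in the 5 KO cerebella and to 3602 to 3995 CPM in WT cerebella. The outside-gene share was 14.02%, 15.2%, 15.8%, 15.9% and 16.6% in these 5 KO mice and 16.1% to 16.97% in WT mice. All of these KO mice but the one at 16.6% lay below every WT mouse in that share. Its part in the Grin2a difference was tested only by the covariate above.

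The other members were not called in cerebellum with or without mouse 12. Grin1 was −0.020 ± 0.17 with mouse 12 and 0.12 ± 0.043 without it (adjusted p = 0.303), a change of direction that followed from leaving out that library. Its WT levels were 406, 427 and 457 CPM (lowest, median, highest), against 426, 471 and 491 CPM in the 5 KO mice, and the groups overlapped. The exact permutation test gave Grin1 an unadjusted p of 0.02381 without mouse 12 and 0.9892 with it. Grin2b was −0.34 ± 0.29 with it and −0.13 ± 0.082 without it. The main cerebellar subunit gene, Grin2c, differed by −0.087 ± 0.090, and by −0.017 ± 0.049 without mouse 12, with a 95% interval from −0.12 to 0.089. Grin2d was 0.066 ± 0.24 and then 0.22 ± 0.16, and Grin3a −0.13 ± 0.13 and then −0.022 ± 0.068.

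**Figure D3:**
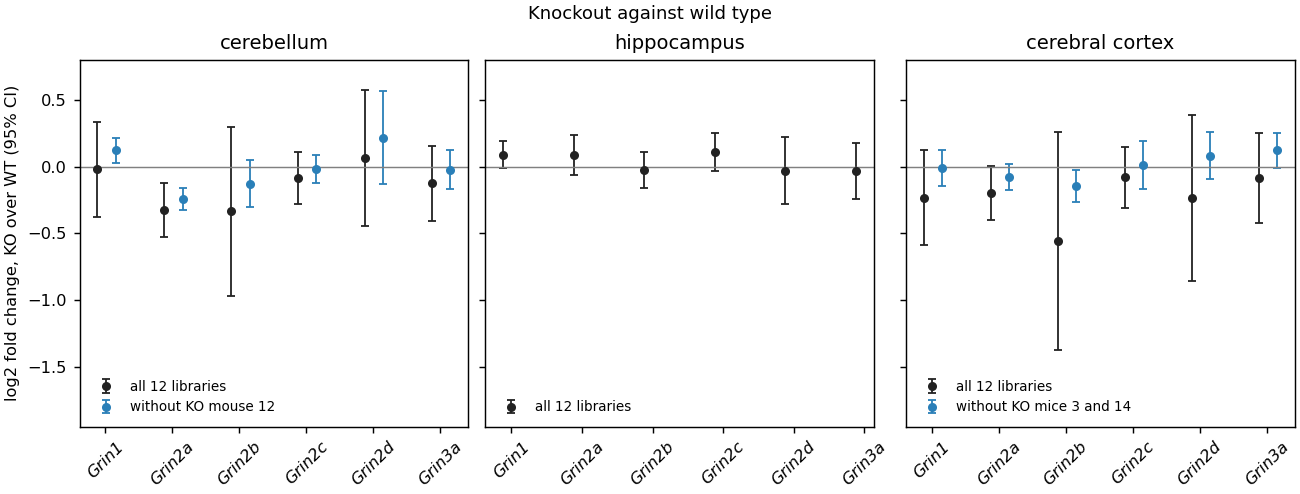
Log2 fold change of each member, KO over WT, with its 95% interval from edgeR's quasi-likelihood test in the 3 regions; black uses all 12 libraries and blue leaves out KO mouse 12 in cerebellum or KO mice 3 and 14 in cortex. The cerebellar Grin2a intervals lie below 0 in both fits, and the wide intervals of Grin2b narrow when those libraries are left out. The blue intervals of cerebellar Grin1 and cortical Grin2b also exclude 0, and neither gene was called there.

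Hippocampal levels of KO mice were 575 ± 43.2 CPM for Grin1, 790 ± 51.7 CPM for Grin2b, 68.5 ± 6.75 CPM for Grin2c, 13.2 ± 2.31 CPM for Grin2d and 66.1 ± 11.02 CPM for Grin3a. No hippocampal library stood apart by its outside-gene share, and no member was called, where 0.165% of genes were called. No member passed an unadjusted p under 0.05 in edgeR either, where 7.7% of all genes did, and DESeq2 called none. Grin2a was 391, 409 and 472 CPM (lowest, median, highest) in WT mice and 385, 449 and 513 CPM in KO mice, so the groups overlapped, and its log2 difference was 0.088 ± 0.069 (95% interval −0.059 to 0.23). The remaining 5 members lay between −0.032 ± 0.097 for Grin3a and 0.11 ± 0.066 for Grin2c. The widest interval was that of Grin2d, from −0.28 to 0.22. Groups did not overlap for 0.648% of hippocampal genes, and for none of the members.

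In cerebral cortex the KO values spread over a wide range. Grin2b was 558, 642 and 671 CPM (lowest, median, highest) in WT mice and 79.2, 549 and 604 CPM in KO mice. The 2 lowest KO values came from mice 14 (79.2 CPM) and 3 (215 CPM), while the other 4 lay between 520 and 604 CPM. The log2 difference was −0.56 ± 0.38 (95% interval −1.38 to 0.26, adjusted p = 0.483) in all 12 libraries and −0.34 ± 0.20 without mouse 14. It was −0.14 ± 0.056 without mice 3 and 14 (95% interval −0.26 to −0.023, adjusted p = 0.979).

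No member was called in cortex in all 12 libraries (0.0557% of genes were), without mouse 14 (0.121%) or without mice 3 and 14 (0.142%), by edgeR. DESeq2 called none in all 12 libraries. At an unadjusted p under 0.05 edgeR gave none of the 6 in all 12 libraries, and DESeq2 gave 1, Grin2a (adjusted p = 0.542). Over all genes, edgeR gave 7.39% at that threshold, and DESeq2 gave 2148 of 33128 genes. By the exact permutation test Grin2b had p = 0.01299 and Grin2a p = 0.02381 in all 12 libraries, unadjusted. Without mice 3 and 14 that test gave 0.04762 and 0.1048. Grin2a was −0.20 ± 0.094 in all 12 libraries and −0.078 ± 0.045 without mice 3 and 14. Grin1 was −0.23 ± 0.16 and then −0.010 ± 0.061. Grin2c, Grin2d and Grin3a changed sign, from −0.080 to 0.014, from −0.24 to 0.082 and from −0.085 to 0.12. Groups overlapped for all 6 members, where 0.601% of cortical genes had groups that did not overlap, and 1.07% without mice 3 and 14.

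**Figure D4:**
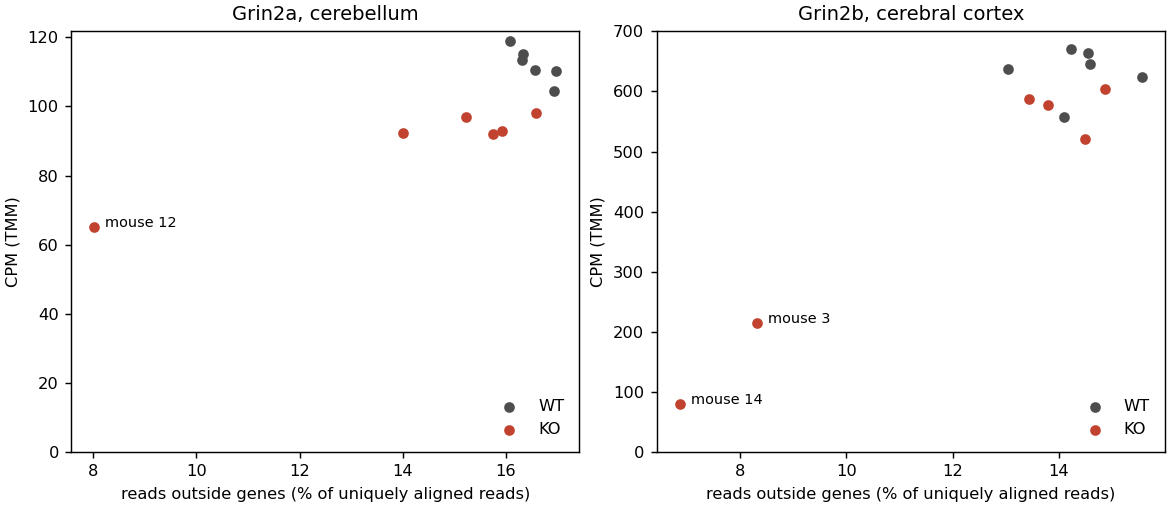
Level (CPM) of Grin2a in the 12 cerebella and of Grin2b in the 12 cortices against the share of uniquely aligned reads that fell outside genes (%); grey is WT and red is KO. KO mouse 12 and KO mice 3 and 14 sit at the lowest shares and levels. The other 5 KO cerebella lie below every WT cerebellum for Grin2a, and all of them but mouse 5 also lie below every WT cerebellum in that share.

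Whether the knockout effect differed between regions was tested as an interaction over the 36 libraries. The difference of the Grin2a effect, cerebellum less hippocampus, was −0.42 ± 0.13 (adjusted p = 0.884, edgeR), where 0.0258% of genes were called. Without the 3 libraries that stood apart it was −0.33 ± 0.069 (adjusted p = 0.0586). Against cortex the Grin2a difference in all 36 libraries was −0.13 ± 0.13, where 0.0103% of genes were called, and −0.16 ± 0.076 without the 3 libraries (adjusted p = 0.443). For hippocampus less cortex it was 0.30 ± 0.13 (adjusted p = 0.641), where 0.0% of genes were called and 857 passed an unadjusted p under 0.05, and it was 0.17 ± 0.072 without the 3 libraries (adjusted p = 0.706). No member was called in any of the 3 interactions, and Grin2a was the only member with an unadjusted p under 0.05 in all 36 libraries, in 2 of the 3. In cerebellum less hippocampus 721 of all 19388 genes passed that unadjusted threshold. A difference of the cerebellar Grin2a effect from that of the other regions did not reach an adjusted p under 0.05.

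Genes that act with the receptor were read from 6 lists of 53 genes in all: other glutamate receptor subunits, scaffolds, kinases and phosphatases, co-agonist genes, downstream genes and transport genes. None was called between KO and WT by edgeR in any region, nor in cerebellum without mouse 12 or in cortex without mice 3 and 14. Of the genes tested, 2 of 53 in cerebellum, 8 of 50 in hippocampus and 1 of 51 in cortex had an unadjusted p under 0.05, beside 5.85%, 7.7% and 7.39% of all genes. The median log2 difference over the lists was −0.084 in cerebellum, 0.042 in hippocampus and −0.14 in cortex, against 0.00041, 0.00018 and 0.0058 over all genes tested. Without mouse 12 it was 0.012 in cerebellum, and without mice 3 and 14 it was −0.017 in cortex.

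The gene of smallest p in hippocampus was Nos1, neuronal nitric oxide synthase, which is tethered to the receptor through PSD-95. Its log2 difference was −0.26 ± 0.056 (adjusted p = 0.113 by edgeR and 0.00458 by DESeq2, which called it alone of the 53 genes of these lists, beside 0.509% of the genes it adjusted). Sst, somatostatin of a class of interneurons, was −0.62 ± 0.13 in the same comparison (adjusted p = 0.102 by edgeR and 0.000712 by DESeq2), and its part in the Nos1 value was not tested. Among hippocampal scaffolds Neto1, an auxiliary protein, was 0.19 ± 0.051 (adjusted p = 0.312). Slc7a10, a carrier of small neutral amino acids that include D-serine and glycine, was −0.15 ± 0.056 (adjusted p = 0.557). The transport adaptor gene Lin7c was 0.064 ± 0.040 (adjusted p = 0.745).

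In cerebellum the genes of smallest p in their lists were Lin7b (0.78 ± 0.35), Ddo, which degrades D-aspartate (−0.13 ± 0.055), the calmodulin gene Calm3 (0.17 ± 0.079), the kinase gene Cdk5 (0.39 ± 0.19), the receptor tyrosine kinase gene Ephb2 (−0.23 ± 0.19) and Grid1 (−0.17 ± 0.17). Their adjusted p was 0.583 or more. Without mouse 12 the smallest was that of Rasgrf1, a calcium-dependent activator of Ras, at 0.50 ± 0.11 (adjusted p = 0.0893), and Lin7b was 0.20 ± 0.099, Ddo −0.15 ± 0.040, Calm3 0.10 ± 0.039, Cdk5 0.14 ± 0.048, Ephb2 −0.085 ± 0.099 and Grid1 −0.034 ± 0.078. In cortex the corresponding genes were Lin7b (0.89 ± 0.40), Homer1 (−0.27 ± 0.14), Cdk5 (0.34 ± 0.19), Calm2 (0.43 ± 0.24), the serine synthesis gene Phgdh (0.29 ± 0.18) and Grid1 (−0.30 ± 0.26), with adjusted p of 0.474 or more. Without mice 3 and 14 Homer1 was −0.33 ± 0.13, Lin7b 0.073 ± 0.071, Cdk5 −0.0080 ± 0.037, Calm2 −0.039 ± 0.043, Phgdh 0.012 ± 0.12 and Grid1 −0.030 ± 0.050, with adjusted p of 0.979 or more, so Cdk5 and Calm2 changed sign.

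Between regions of WT mice the same lists were compared too. In cerebellum against cortex 16 of 53 were higher and 35 lower, beside 39.2% and 42% of all genes. Against hippocampus 16 were higher and 34 lower, beside 39.6% and 41.2%. In hippocampus against cortex 21 were higher and 19 lower, beside 27.3% and 28.6%. Among scaffolds 11 of 13 were lower in cerebellum than in cortex, with a list median of −0.99, and 9 of 12 kinases and phosphatases were lower, with a median of −0.81, against a median of −0.023 over all genes. Neto1 was −5.47 ± 0.069 in cerebellum against cortex. Of the receptor subunits outside the 6 members, Grin3b was 2.36 ± 0.26 and Grid1 −1.32 ± 0.045 in that comparison.

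Over the 36 brain libraries, the protein-coding genes whose log2 CPM was most like that of each member were named by Pearson correlation. The points share mice, regions and libraries, so r mostly follows the 3 regions. For Grin2b they were Shisa7, Tppp and Dnal1 (r from 0.995 to 0.996), for Grin2c Rgl3, Icmt and Mindy1 (0.993 to 0.995), and for Grin2a Iqgap2, Atp2b1 and Wipf3 (0.989 to 0.992). Grin3a was most like Xylt1, Tenm3 and Map2 (0.957 to 0.965) and Grin1 most like Gtf3c1, Shank1 and Kif1a (0.961 to 0.962). No gene exceeded 0.9 for Grin2d, whose closest were Acly, Hdac6 and Nlgn2 (0.871 to 0.889).

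Among the members, Grin2b ran against Grin2c (r = −0.935 over 36 libraries) and with Grin3a (r = 0.941). After each group's mean was taken away, Grin1 and Grin2b had r = 0.894, and r = −0.020 in the 33 libraries left without the 3 that stood apart. The corresponding values for Grin2a and Grin2b were 0.790 and 0.435. Over the 15 pairs of members, these deviations had r from 0.417 to 0.894 in all 36 libraries and from −0.631 (Grin2a with Grin3a) to 0.440 (Grin1 with Grin2c) in the 33.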

How the data were processed

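Bulk RNA-seq was run on 72 libraries from 18 mice, of which the 36 brain libraries were used for the comparisons. The files hold whole-number counts per gene, deposited by the authors without normalisation. Per the labels and the study's methods, reads from a stranded total RNA kit were trimmed with cutadapt 1.8, aligned to GRCm38 with STAR 2.5.3a and counted with HTSeq 0.9.1 on Ensembl genes. The 5 rows that name no gene were left out of library sizes. They gave the shares of reads outside genes. Of 53715 genes, 53620 matched the GENCODE M21 annotation by identifier. No libraries were identical.

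Genotypes were compared within each region in edgeR 4.0.16 (R 4.3.3; TMM, filterByExpr with a minimum count of 10, quasi-likelihood F test, Benjamini-Hochberg over all genes, called at 0.05). Regions were compared with the mouse as a block, since each mouse gave all 3. The SE was the absolute log2 fold change over the root of the F statistic. DESeq2 1.42.0 was an alternative. Single genes were also tested by exact permutation of log2 CPM (prior count 2). RPKM used the union of exons, or the longest transcript as an alternative. The models were checked on counts simulated from a common mean profile with known changes. These held no library that stood apart and no mouse effect, so the check does not cover either. KO and WT mice with the same replicate number are different animals and did not deviate together (0 of 6 pairs above r = 0.1 in each region).

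The members, gene lists and settings were chosen with earlier results of these data known. All 6 members are named. From each list the gene of smallest p in each region is named, except for some items that are not reported here, and for likeness the 3 genes of highest r. Leaving out KO mice 3 and 14 in cortex, singly planned, was done together after seeing the data, as were the covariate fits. So were DESeq2 without mouse 12 or mouse 14, and the KO region and interaction fits without all 3 libraries that stood apart. Each sample is a separate mouse within a group. Intervals cover the spread between these mice only.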

Additional observations from a re-analysis of the deposited data

Results flagged for a closer look

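In 36 pairs of member and brain group, 3 held a library far from the other 5 by Dixon's test, which chance alone gives in about 1 in 20 groups. Grin1 in KO cerebellum was 211.6 CPM in mouse 12, against 425.5 to 491.3 CPM in the other mice. Grin2a in KO cerebellum was 65.17 CPM in the same mouse, against 91.94 to 98.05 CPM. Grin2c in KO hippocampus was 81.56 CPM in mouse 3, above the other 5 mice.

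The heart libraries, which no comparison above used, also held member reads above the level that a count of 0 allows (3 counts). In WT atria the median count was 889 for Grin2c, 127.5 for Grin2d, 87.5 for Grin2a and 71 for Grin3a, and every one of the 6 libraries was above 3 counts for these genes. The Grin2c counts ran from 316 to 1720 there and from 7 to 37 in WT ventricles. Grin1, the obligatory subunit gene, had a median of 1.5 counts in WT atria and 0 in WT ventricles.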

How the results depend on the processing

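Every region difference of Grin2a, Grin2b and Grin2c in WT mice kept its direction and its call under RLE size factors, no filter, DESeq2 and no replicate block. The block of replicate numbers left 0 members called between KO and WT in each region, with Grin2a in cerebellum at −0.34. With KO in place of WT mice, 1 of 6 members was called between hippocampus and cortex, with Grin1 at 0.28, and Grin2d between cerebellum and hippocampus was 0.014. Less the 3 libraries that stood apart, these were 0.046 and 0.18, and Grin3a between hippocampus and cortex was −0.096.

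Leaving out single libraries gave 0 to 1 members called in cerebellum, the call being Grin2a without KO mouse 12, as with DESeq2 without that mouse (1). Cerebellar log2 fold changes then ran from −0.068 to 0.12 for Grin1 and −0.058 to 0.22 for Grin2d. In hippocampus they ran from −0.065 to 0.0069 for Grin2b, −0.085 to 0.059 for Grin2d and −0.086 to 0.046 for Grin3a, and in cortex from −0.16 to 0.017 for Grin3a. Without KO mice 3 and 14, cortical Grin2c was 0.014, Grin2d 0.082 and Grin3a 0.12. DESeq2 gave 0.12 for Grin1 without mouse 12 and 0.013 for Grin3a without mouse 14.

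With the outside-gene share in the model, cerebellar Grin1 was 0.25, Grin2b 0.15, Grin2c 0.024 and Grin3a 0.066, hippocampal Grin3a 0.0038, and cortical Grin2d 0.088 and Grin3a 0.12. Its cause was not tested.

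The interaction of cerebellum with cortex, without mouse 12 or mouse 14, ran from −0.085 to 0.60 for Grin2b, −0.038 to 0.053 for Grin2c and −0.21 to 0.089 for Grin3a. That with hippocampus ran from −0.13 to 0.066 for Grin1 and −0.11 to 0.026 for Grin3a, and hippocampus with cortex from −0.10 to 0.063 for Grin3a. Without all 3 libraries these were −0.0295 for Grin2b and 0.038 for Grin1, and −0.22 for Grin3a and −0.15 for Grin2d in hippocampus with cortex. The depth limits Grin2d most, at 106 counts in its lowest library.

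Over all genes, DESeq2 called 62 in cerebellum, 110 in hippocampus and 35 in cortex, where edgeR called 14, 29 and 10. The replicate block left 5, 19 and 6, the outside-gene share gave 39 in cerebellum, and single libraries left out gave 9 to 62 in cerebellum, 21 to 37 in hippocampus and 8 to 22 in cortex. Longest-transcript lengths kept every rank and moved Grin2 shares by a few points, to 37.1% for Grin2a in WT hippocampus.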
